A study of Homo sapiens with 7 samples.

Results

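The ID genes (ID1, ID2, ID3 and ID4) were described across heat treatments of HSC-3 cells, an established human line from an oral squamous cell carcinoma. They are 4 of 19775 genes on the array and are read by 10 of its 54675 probe sets, counting every probe set annotated to a member, also the 1 that lists ID2 together with its pseudogene ID2B. The family was chosen by the measured values of ID2, which were high after 44 °C on these same arrays. The ID2 values at 44 °C are therefore given as a description, and nothing is read from the size of their difference from the control or from 42 °C. Cells were heated at 44 °C for 90 min and collected after 0, 6 or 12 h back at 37 °C, or heated at 42 °C for 90 min and collected at the same 3 times, or kept untreated at 37 °C as the control. Each of these 7 conditions had 1 Affymetrix U133 Plus 2.0 array, so no difference has a replicate check, no p-value is given, and the number of arrays limits the precision.

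ID proteins are helix-loop-helix factors without the basic region that contacts DNA. They pair with the E proteins (TCF3, TCF4 and TCF12) and keep them from binding E boxes, which holds back differentiation programmes and cell cycle inhibitors that E proteins switch on. ID genes are classical targets of bone morphogenetic protein (BMP) signalling through SMAD1, SMAD5, SMAD9 and SMAD4, and several also respond early to serum and stress. In stratified epithelium they are associated with the proliferating, undifferentiated state.

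The 250 bases before the RefSeq start of ID2, ID1 and ID3 (assembly GRCh38.p14) are shown. These are the members whose signal was clearly measured and whose calls against the control differed. Capitals mark the CCAAT box (CCAAT, or ATTGG on the other strand), the TATA box (TATAAA) and the core of a heat shock element (GAANNTTC). ID2 lies at chr2:8681806-8682055 on the plus strand, ID1 at chr20:31605039-31605288 on the plus strand, and ID3 at chr1:23559502-23559751 on the minus strand, each read 5′ to 3′ towards its gene.
ID2: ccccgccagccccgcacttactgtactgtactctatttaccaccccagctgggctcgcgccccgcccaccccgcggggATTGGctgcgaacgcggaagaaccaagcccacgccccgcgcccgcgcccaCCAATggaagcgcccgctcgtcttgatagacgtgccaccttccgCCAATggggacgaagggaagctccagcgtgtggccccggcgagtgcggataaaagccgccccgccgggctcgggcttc
ID1: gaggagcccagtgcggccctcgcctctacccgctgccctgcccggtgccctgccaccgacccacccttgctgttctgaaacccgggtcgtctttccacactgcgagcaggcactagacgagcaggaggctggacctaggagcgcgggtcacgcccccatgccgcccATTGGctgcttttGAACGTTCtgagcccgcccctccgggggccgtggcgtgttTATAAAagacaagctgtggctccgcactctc
ID3: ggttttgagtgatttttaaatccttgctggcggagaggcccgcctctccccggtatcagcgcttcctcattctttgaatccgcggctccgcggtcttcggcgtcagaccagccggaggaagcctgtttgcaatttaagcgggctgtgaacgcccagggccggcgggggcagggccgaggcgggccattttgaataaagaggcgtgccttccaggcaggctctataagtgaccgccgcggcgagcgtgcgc

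The ID2 stretch held 3 CCAAT boxes, starting 172, 122 and 78 bases before the start site, and no TATAAA or heat shock core. The ID1 stretch held 1 CCAAT box, a TATAAA 31 bases before the start site and GAACGTTC 71 bases before it. The ID3 stretch held none of these, and 1 TGACG (part of a cAMP response element, on either strand). On both strands of the same 250 bases of 35116 promoters, the CCAAT box was found in 32.01%, TATAAA in 6.80%, GAANNTTC in 5.78%, the other heat shock core TTCNNGAA in 6.62%, TGACG in 21.2% and the E box CANNTG in 61.8%. ID2 held 1 E box and ID1 and ID3 none. The EGR site GCGTGGGCG, present in 0.720% of promoters, and the SMAD element GGCGCC, present in 16.4%, were in none of the 4 ID promoters. The shorter SMAD box GTCT, present in 77.5%, was in all 4, with 3 matches in ID1, 2 in ID2, 2 in ID3 and 1 in ID4. GC content was 69.2% for ID2, 66% for ID1 and 62% for ID3, beside a median of 58% over all promoters. A match is a description of these letters and not a shown site, and a missing match says only that the letters are not in this window.

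The deposited intensities are linear, and the arrays differ in level. The median log2 difference from the control, over 20902 probe sets measured on all arrays, was 0.40, -0.07 and -0.35 at 0, 6 and 12 h after 44 °C and -0.13, 0.24 and 0.16 after 42 °C. All 6 comparisons with the control share that 1 array. The words rose and fell are therefore kept for genes past 2-fold under 3 scalings: the values as deposited, quantile normalized values, and arrays shifted by that median. Values under the pooled median of 21.4 units were set to that floor, so a difference that involves an array below it is a lower bound, written with at least. The ratio of 3' to 5' probe sets lay between 0.875 and 0.993 for GAPDH and between 1.19 and 1.29 for ACTB on all arrays. The 6 squamous markers with a probe set of their own were above the floor on all arrays and summed to 37837, 31960 and 27645 after 44 °C, 25973, 30457 and 27708 after 42 °C and 25436 in the control. Most of each sum was KRT14 and KRT5, and these and ITGB4 read above the control at each time after 44 °C. CDH1 read lower, at 1405, 1304 and 1073 units after 44 °C beside 1804 units in the control. DSP read 2973 units at 12 h after 44 °C beside 4611 units in the control. None of the 6 was called. Of 7 fibroblast markers only COL1A1 and, of 5 endothelial markers, only PECAM1 were above the floor on all arrays, and the leukocyte marker PTPRC was below it on all. The leukocyte marker CD14 read 17.2, 40.9 and 43.5 units after 44 °C, 21.9, 26.3 and 4.72 units after 42 °C and 1.92 units in the control, and was called higher at 12 h after 44 °C. The fibroblast sum was 476, 414 and 322 after 44 °C, 331, 265 and 275 after 42 °C and 244 in the control, most of it COL1A1 (273 to 307 after 44 °C, 204 to 249 after 42 °C and 139 in the control). COL1A1 was above the control on every heated array and was called only at 6 h after 44 °C, and CD14 was below the floor at 0 h after 44 °C. No other fibroblast or leukocyte marker was called against the control. They went both ways at 6 h after 44 °C: THY1 read 26.2 units (41.4 in the control), CD3E 18.3 units (27.6) and COL3A1 25.4 units (3.40). The part of other cell types in the ID2 values was not tested.

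ID2 was at or below background in untreated cells and was bright after 44 °C at every time. Its main probe set, 201565_s_at, read 1054, 2996 and 2892 units at 0, 6 and 12 h after 44 °C, 121, 50.1 and 11.1 units after 42 °C, and 4.46 units in the control. All 3 of the 44 °C arrays lay above all 3 of the 42 °C arrays, and the control was lowest. In RNA from a whole culture, more ID2 per cell and more cells with ID2 cannot be told apart. These levels were at least 49.4-fold, 140.3-fold and 135-fold above the control at 0, 6 and 12 h after 44 °C, the values by which the family was picked. Among all 15029 genes measured, 2.18%, 1.54% and 1.74% were higher on these 3 arrays, and ID2 was the single member called on each. A set of 72 genes (0.479%) was higher than the control on all 3 of the 44 °C arrays. ID2 belongs by its choice to this set, and also to the 40 genes (0.266%) that were higher in addition directly after 42 °C.

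**Figure D1:**
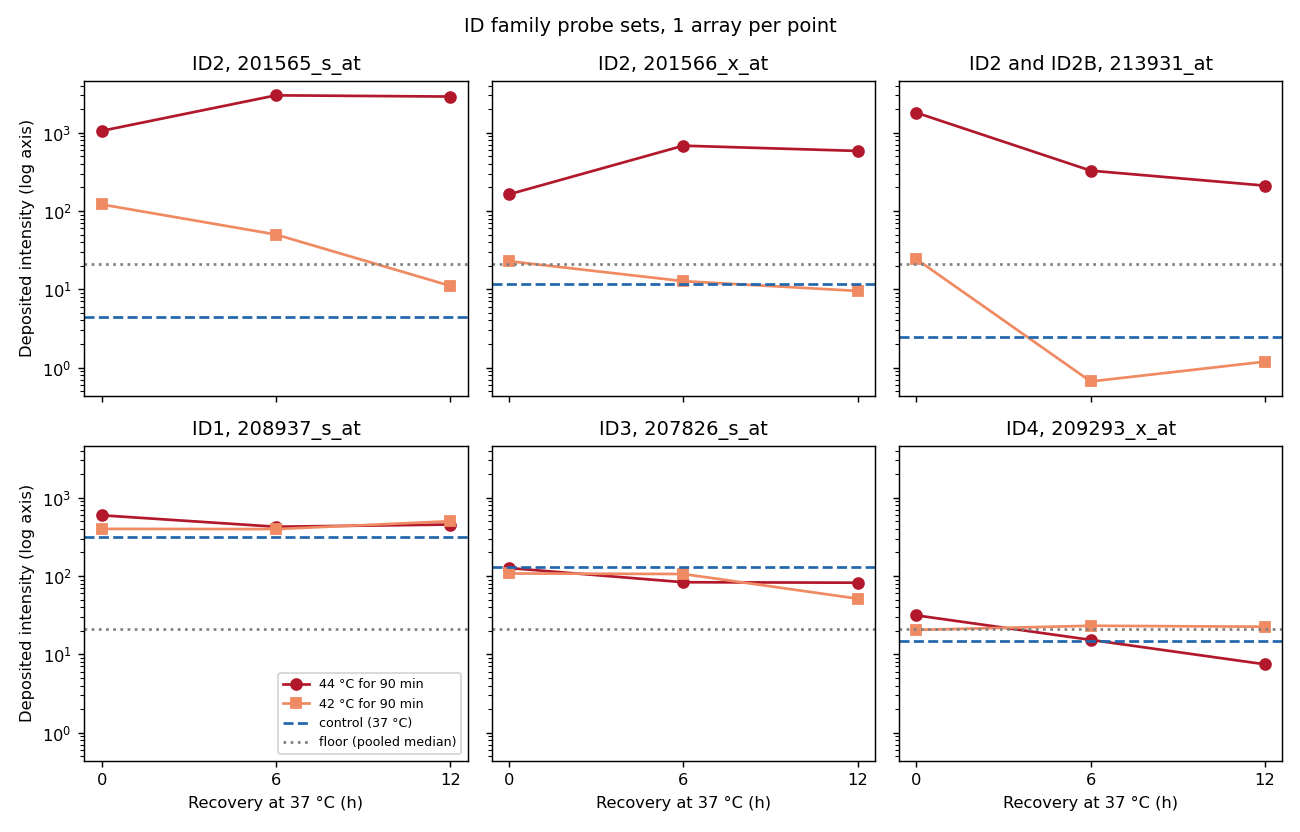
Deposited intensity (log axis) of 6 ID probe sets against hours of recovery at 37 °C, 1 array per point, for 44 °C (circles) and 42 °C (squares), with the control array as a dashed line and the floor of 21.4 units as a dotted line. All 3 probe sets that list ID2 lie above the floor at every time after 44 °C, while ID1 and ID3 stay within 3-fold of the control and ID4 stays near the floor.

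At 42 °C the ID2 signal was short-lived. Directly after heat it was at least 5.68-fold above the control under the deposited scale and rose under all 3 scalings, as did 1.48% of all genes. The other 2 probe sets that list ID2 were not called there, at bounds of 0.10 and 0.19 log2 units. At 6 h it was at least 2.34-fold above the control as deposited, but 0.99 log2 units above it after the median shift, so no rise is called. At 12 h both arrays were below the floor. Between 0 and 6 h after 42 °C the ID2 level fell by 1.28 on the log2 scale, the 60th lowest of 10957 genes measured on both arrays, and 1.04% of all genes fell. This fall rested on the main probe set, since 201566_x_at read 22.9 units at 0 h and 12.7 units at 6 h and the mean of both ID2-only probe sets changed by -0.69 log2 units, short of 2-fold.

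Between 0 and 6 h after 44 °C the main ID2 probe set moved the other way and rose by 1.51 log2 units, or 2.84-fold. This was the 4th highest difference of 11568 genes measured on both arrays, in a comparison in which 0.253% of genes rose and 1.3% fell. Between 6 and 12 h it differed by -0.05, with no call, so the order of these neighbours is not read. Directly after heating, the level was 8.69-fold higher after 44 °C than after 42 °C, and at 6 h it was 59.9-fold higher. At 12 h it was at least 135-fold higher, against an array below the floor. The shares of all genes higher at 44 °C were 3.01%, 1.72% and 1.83% at 0, 6 and 12 h. These comparisons use the same 44 °C arrays by which the family was picked. Heat shock genes were read as a check of the treatments. The inducible chaperone HSPA6 read 5143, 7596 and 8788 units after 44 °C, 12566, 262 and 18.9 units after 42 °C and 4.82 units in the control. Its cochaperone DNAJB1 read 7110, 7004 and 6989 units after 44 °C, 9949, 1354 and 1299 units after 42 °C and 881 units in the control. Directly after heating HSPA6 was thus lower at 44 °C than at 42 °C, the opposite order to ID2.

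The probe sets that list ID2 did not share 1 time course at 44 °C. The second, 201566_x_at, whose suffix marks probes that can match other transcripts, read 163, 682 and 585 units at 0, 6 and 12 h after 44 °C, 22.9, 12.7 and 9.55 units after 42 °C and 11.6 units in the control. Like the main probe set it rose between 0 and 6 h after 44 °C, by 2.06 log2 units. The third, 213931_at, which lists ID2 and the pseudogene ID2B, read 1798, 327 and 211 units after 44 °C, 24.3, 0.67 and 1.19 units after 42 °C and 2.49 units in the control. It was highest directly after heat and fell by 2.46 log2 units between 0 and 6 h after 44 °C, under all 3 scalings. All 3 were higher on each 44 °C array than on the control and on the 42 °C array of the same time.

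The spread of 4.52 log2 units between these 3 probe sets, in the change from 0 to 6 h after 44 °C, was the widest of 4826 genes with at least 2 bright probe sets. The median spread was 0.32 and the 95th percentile 1.22 log2 units. The ID2 probe sets were bright here on the same 44 °C arrays by which the family was picked, so this rank is only a description. Only ID2 and HSPA1L had probe sets that passed 2-fold in both directions in that comparison. The probe set that lists ID2B alone, 210911_at, read 8.18, 12.7 and 23.1 units after 44 °C, 0.78, 1.96 and 9.25 units after 42 °C and 16.0 units in the control. It was above the floor on 1 array and did not share the course of 213931_at. The antisense neighbour ID2-AS1 (236719_at) read 40.2, 31.1 and 29.1 units after 44 °C, 27.4, 14.5 and 16.7 units after 42 °C and 37.1 units in the control. Its highest value was within 2-fold of the floor, and the control lay among the 44 °C values.

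**Figure D2:**
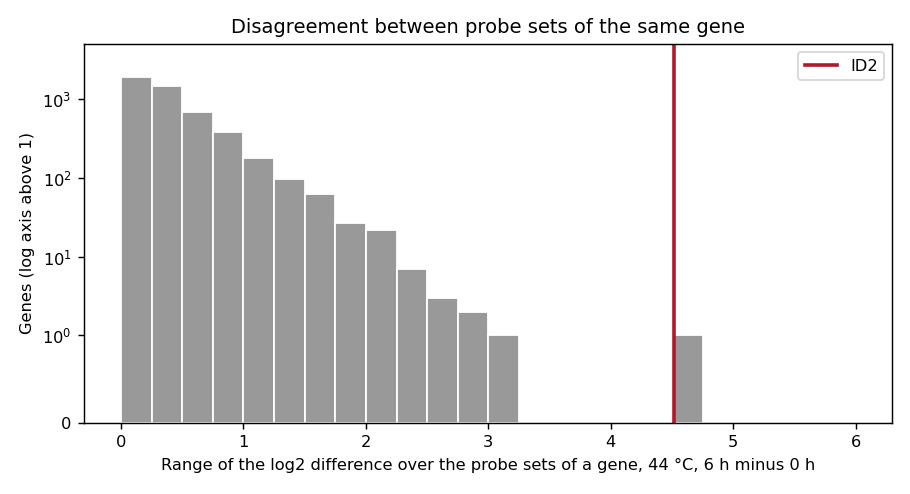
Number of genes (log axis above 1) by the spread, in log2 units, between the probe sets of a gene in the change from 0 to 6 h after 44 °C, over 4826 genes with at least 2 bright probe sets. The line marks ID2 at 4.52, beyond all other genes, whose median was 0.32. ID2 was picked by its values on 44 °C arrays, so its place is a description.

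ID1, the member most closely tied to BMP signalling, was well above the floor on all 7 arrays and did not pass 2-fold in any comparison. Its single probe set read 596, 426 and 454 units at 0, 6 and 12 h after 44 °C, 400, 397 and 501 units after 42 °C and 313 units in the control. The control array was the lowest of all 7, with heated arrays 1.27-fold to 1.91-fold above it. The difference stayed above 0 on 6 of 6 heated arrays under all 3 scalings, from 0.04 to 0.94 log2 units, all against the same control array. Neighbours in the order of ID1 levels, from 596 units down to the control, lay at most 0.35 log2 units apart. Bright probe sets of the same gene disagreed with an SD of 0.279 to 0.421 log2 units over the comparisons, so no order of neighbours is read. At 12 h the 44 °C minus 42 °C difference was -0.14 as deposited, 0.46 when quantile normalized and 0.37 when median shifted. As deposited the temperatures overlapped, while after quantile normalization the 44 °C arrays (0.63, 0.57 and 0.94 above the control at 0, 6 and 12 h) lay above all 42 °C arrays (0.49, 0.043 and 0.48). After the median shift they were not separated, with 0.52 both at 6 h after 44 °C and at 12 h after 42 °C.

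ID3, which shares BMP control with ID1, was on the low side after heat. It read 126, 83.3 and 82.2 units at 0, 6 and 12 h after 44 °C, 108, 106 and 51.4 units after 42 °C and 131 units in the control. The control was the highest of the 7 arrays and the 12 h array after 42 °C the lowest, 0.68 log2 units under its neighbour in that order. The other gaps between neighbours were 0.02 to 0.35. ID3 fell by 1.35 on the log2 scale at 12 h after 42 °C (2.55-fold lower), the 27th lowest of 11114 genes measured on both arrays, and was the single member called there, where 1.45% of all genes fell. On the other 5 heated arrays it was 0.05 to 0.68 log2 units below the control, with no call. Under all 3 scalings it was below the control on all 6 heated arrays. At 12 h it was 0.68 log2 units higher after 44 °C than after 42 °C as deposited, and 1.09 and 1.19 higher under the other scalings, which is no call by the rule used.

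**Figure D3:**
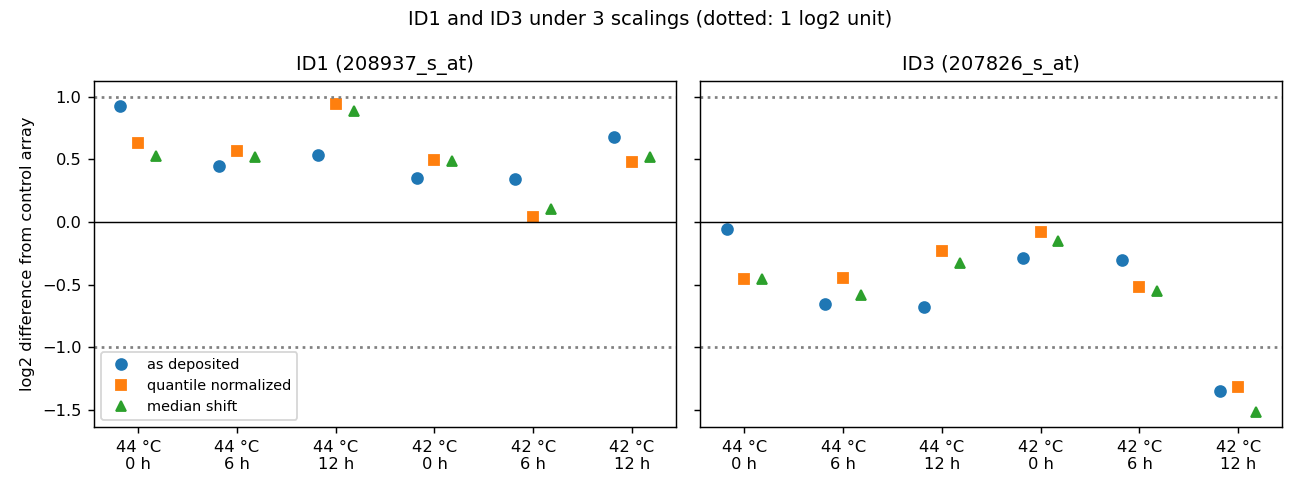
Log2 difference of ID1 and ID3 from the control on each heated array, as deposited (circles), after quantile normalization (squares) and after a median shift (triangles), with dotted lines at 1 log2 unit. All ID1 points lie above 0 and within 0.94, all ID3 points lie below 0, and only ID3 at 12 h after 42 °C is past 1 log2 unit under all 3 scalings.

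ID4 was at background. Its brightest probe set, 209293_x_at, read 31.4, 15.3 and 7.46 units after 44 °C, 20.5, 23.2 and 22.6 units after 42 °C and 14.8 units in the control, so 3 arrays were above the floor. Another, 229386_at, was above it on 2 arrays, with a highest value of 22.0 units, and the other 3 were below it on all 7. No ID4 difference passed 2-fold. By its main probe set ID2 was called higher than the control directly after 42 °C and on the 44 °C arrays by which the family was picked. ID3 was called lower on 1 array, and ID1 and ID4 passed 2-fold nowhere. No course is read for ID4, and with 1 array for each condition a difference between members was not tested.

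The genes whose log2 values followed ID2 most closely over the 7 arrays were picked by Pearson correlation. Out of 5759 genes that were bright on some array and spanned at least 2-fold, 26 had a Pearson correlation above 0.9 with ID2. Because the 44 °C arrays carry this pattern, the correlations are a description over 7 points that share arrays. The nearest was GADD45G, a growth arrest and DNA damage response gene (r = 0.992), at 105, 126 and 139 units after 44 °C, 43.3, 23.7 and 13.6 units after 42 °C and 21.1 units in the control. The AP-1 subunit FOS (r = 0.991) read 471, 848 and 804 units after 44 °C, 130, 33.5 and 13.3 units after 42 °C and 3.86 units in the control. Its 7 values stood in the same rank order as those of ID2 once values below the floor were tied.

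BAMBI, a decoy receptor that damps BMP and TGF-beta signalling, came next (r = 0.984). It was followed by the AP-1 subunit FOSB (0.963), the G protein regulator RGS16 (0.962), the Ras-related RASD1 (0.962) and the orphan receptor NR4A2 (0.961). The zinc finger gene ZNF595 (0.959), the early growth response factor EGR1 (0.959) and the epithelial-mesenchymal factor SNAI1 (0.958) completed the 10. The choice depended on the measure: 4 of these 10 were shared with the 10 most like ID2 by Spearman correlation and 2, FOS and GADD45G, after quantile normalization. For ID3 the 5 nearest were ARSK (0.958), SH3BP2 (0.905), NME3 (0.892), LAMA5 (0.861) and MYL4 (0.861). After quantile normalization SH3BP2 had 0.764. The ARSK probe sets disagree: 1569132_s_at read 60.5, 99.1 and 70.0 units after 42 °C and 24.7 units in the control, and 1569133_x_at was called lower directly after 42 °C. The probe set that lists LAMA5 with LAMA5-AS1 was highest at 12 h after 42 °C (47.1 units), where ID3 was lowest. ID1 and ID4 were not matched, since ID1 spanned less than 2-fold and ID4 was dim.

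**Figure D4:**
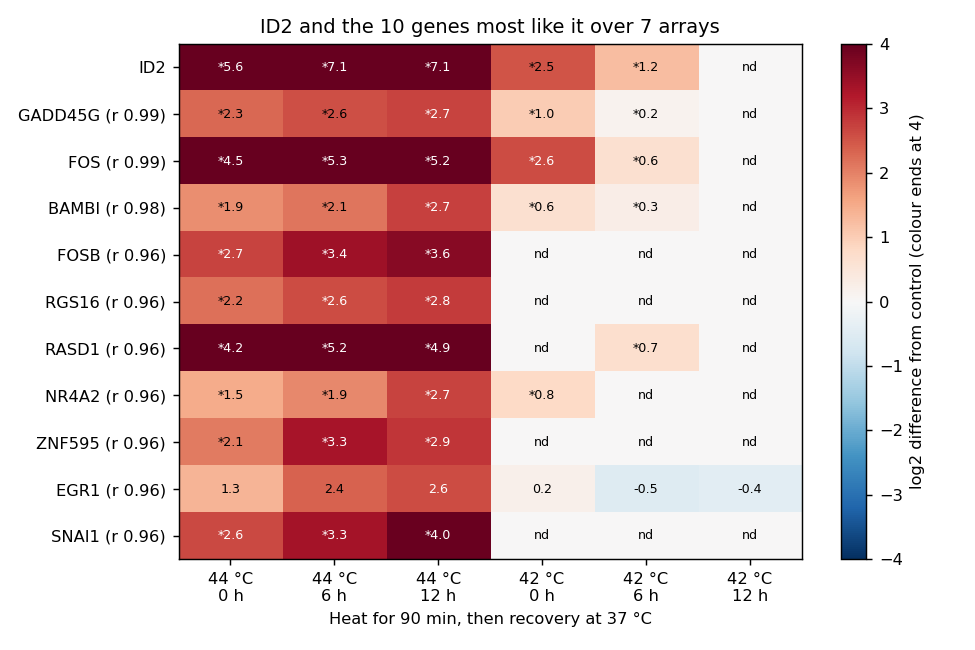
Log2 difference from the control of ID2 and the 10 genes most like it, by Pearson correlation (r) over 7 arrays, with the 44 °C arrays to the left of the 42 °C arrays. An asterisk marks a bound against an array below the floor and nd a pair of arrays both below it. All 11 genes are above the control on each 44 °C array, and directly after 42 °C only ID2, FOS and GADD45G reach 1.

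None of the 3 E proteins, the partners that ID proteins bind, was called in any comparison by its main probe set. TCF3 (E2A) read 500, 460 and 337 units after 44 °C, 459, 495 and 427 units after 42 °C and 343 units in the control. TCF12 (HEB) read 536, 383 and 300 units after 44 °C, 545, 679 and 632 units after 42 °C and 521 units in the control. At 12 h it was 2.11-fold lower after 44 °C than after 42 °C as deposited, which did not hold under all scalings. Of the other TCF3 probe sets, 216647_at read 87.2, 14.5 and 14.1 units after 44 °C and 31.5 units in the control and was called higher at 0 h. TCF4 stayed between 17.6 and 36.4 units, near the floor. 

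Of 25 other basic helix-loop-helix factors measured, 2, 1 and 2 rose against the control at 0, 6 and 12 h after 44 °C, where 2.18%, 1.54% and 1.74% of all genes rose, and none rose after 42 °C. After 44 °C 0, 0 and 1 fell, beside 0.725%, 2.75% and 3.64% of all genes, and after 42 °C 1, 3 and 3 fell, beside 3.21%, 2.02% and 1.45%. HES1, a Notch-regulated repressor, was among those that rose at all 3 times after 44 °C. It read 649, 365 and 400 units after 44 °C, 149, 124 and 197 units after 42 °C and 162 units in the control. Its other bright probe set, 203395_s_at, read 135, 138 and 102 units after 44 °C and 151 units in the control and did not rise, so the HES1 probe sets disagree. BHLHE40, a repressor of the circadian clock, rose at 12 h after 44 °C (2.72-fold), with 190 units beside 69.9 units in the control. MNT, a MAX partner that opposes MYC, fell by 1.55 on the log2 scale directly after 42 °C, and USF2 fell by 1.29 at 6 h after 42 °C. The other 2 USF2 probe sets, above the floor on all arrays, had no call there (-0.02 and -0.31), and the dimmer probe sets of MNT and BHLHE40 had none either.

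The BMP pathway that drives ID genes did not move as 1 group. In its 4 lists 30 of 39 genes were measured. After 44 °C, 1 rose and 1 fell at 0 h, 2 rose and 1 fell at 6 h, and 1 rose and 4 fell at 12 h. These are 6.67%, 10% and 16.7% of the members, beside 2.91%, 4.29% and 5.38% of all genes called either way. After 42 °C, 1 and 1, 1 and 2, and 0 and 1 rose and fell at 0, 6 and 12 h (6.67%, 10% and 3.33%), beside 4.7%, 3.55% and 2.44% of all genes. None of the 10 BMP ligands measured was both called and bright (at least 4 times the floor, 85.4 units). The nearest was BMP4, named after its values were seen, which read 82.6 units directly after 42 °C and at most 5.12 units on every other array. Also named after their values were seen, GDF2, BMP8B and BMP7 were dimmer. GDF2 read 52.7 units in the control and 14.5, 4.10 and 3.60 units after 42 °C. It was called lower on these 3 arrays and at 6 h after 44 °C. BMP8B was called lower at 6 h after 42 °C and 12 h after 44 °C, and BMP7 higher at 6 h after 44 °C.

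Among 5 receptors measured, BMPR2, the type II BMP receptor, read 64.2 units at 12 h after 44 °C beside 178 units in the control and fell 2.77-fold. Of its other 5 probe sets, 238516_at fell by 1.05 or more on the log2 scale there (below the floor at 12 h), 3 lay below the control with no call, and 1 was not above the floor on either array. ACVR2B, a type II activin receptor, fell by 1.06 and 1.69 log2 units at 0 and 12 h after 44 °C. Its other measured probe set, 220028_at, went the opposite way at 0 h (96.8 units after 44 °C, 47.0 units in the control), with no call. ACVR2A rose by 1.24 at 6 h after 42 °C, where its second probe set had no call. By their main probe sets the SMAD transducers had no call against the control. For SMAD5, 225223_at fell by 1.32 and 1.69 log2 units at 6 and 12 h after 44 °C, and the other 4 probe sets had no call there. The main SMAD5 probe set read 275 units at 6 h after 44 °C and 769 units at 6 h after 42 °C, 2.79-fold lower at 44 °C, as 4.5% of all genes were lower there. That difference was called for 4 of the 5 SMAD5 probe sets. The median of the 4 SMADs at 12 h after 44 °C was -0.96 log2 units as deposited, beside -0.16 for all genes, and -0.53 and -0.62 under the other scalings, beside 0 for all genes.

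Of 11 BMP inhibitors measured, BAMBI alone rose after 44 °C, at all 3 times, where 2.18%, 1.54% and 1.74% of all genes rose at 0, 6 and 12 h. It read 77.3, 93.2 and 141 units after 44 °C, 33.4, 25.5 and 9.37 units after 42 °C and 8.95 units in the control, at least 3.62-fold, 4.37-fold and 6.62-fold above the control. NOG alone fell, at 12 h after 44 °C, with 21.4 units beside 57.6 units in the control, where 3.64% of all genes fell. Of the inhibitory SMADs, which BMP signalling itself induces, SMAD6 was below the floor on all arrays and SMAD7 had no call against the control. SKIL and TOB1, which restrain SMAD-dependent transcription, were 2.86-fold and 2.53-fold lower at 6 h after 44 °C than at 6 h after 42 °C. TOB1 read 676 and 1713 units on these arrays and 759 units in the control. The other probe sets of both genes had no call in that comparison.

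**Figure D5:**
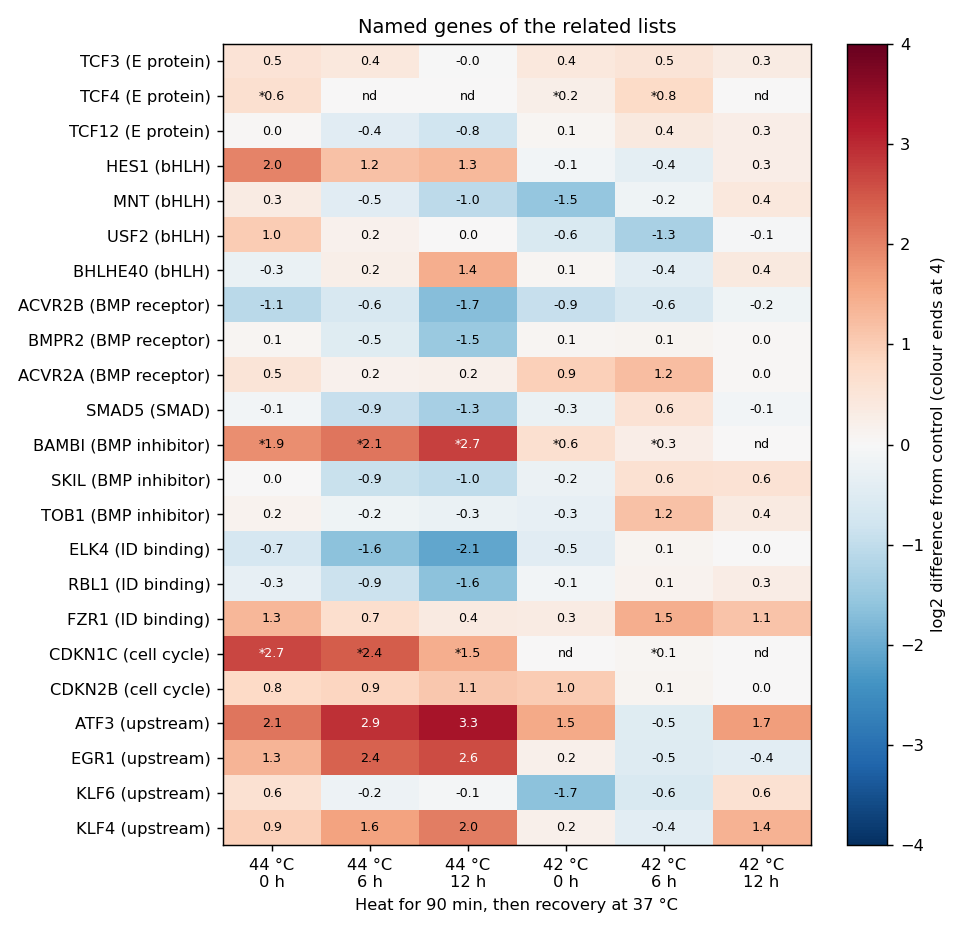
Log2 difference from the control of 23 named genes of the related lists, with the 44 °C arrays to the left of the 42 °C arrays, an asterisk for a bound and nd for a pair of arrays both below the floor. ATF3, EGR1, KLF4, HES1, BAMBI and CDKN1C stand above the control at all 3 times after 44 °C, while ELK4, RBL1 and BMPR2 are lowest at 12 h after 44 °C.

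Of 13 genes for proteins that bind ID proteins or set their turnover, none rose and 0, 1 and 2 fell at 0, 6 and 12 h after 44 °C, where 0.725%, 2.75% and 3.64% of all genes fell. ELK4, an ETS factor of the kind that ID proteins can bind, read 459, 238 and 176 units after 44 °C, 536, 794 and 740 units after 42 °C and 737 units in the control. It fell by 1.63 and 2.07 log2 units at 6 and 12 h after 44 °C. Of its other probe sets, 214831_at fell at both times and 238761_at at 12 h, and the 4 dimmer ones did not fall. RBL1 (p107), a pocket protein of the RB family, of which ID2 is a known partner, fell by 1.65 at 12 h after 44 °C, with 80.6 units beside 252 units in the control. Its other 2 measured probe sets were lower there with no call (-0.91 and -0.74). FZR1 (CDH1), the adaptor that directs ID proteins to the anaphase-promoting complex, rose 2.74-fold at 6 h after 42 °C by its main probe set, while its other 3 probe sets were within 2-fold of the control there.

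Of 5 cell cycle inhibitors that E proteins can switch on, 1, 1 and 2 rose at 0, 6 and 12 h after 44 °C, where 2.18%, 1.54% and 1.74% of all genes rose. After 42 °C 1, 0 and 0 rose, beside 1.48%, 1.52% and 0.991% of all genes. CDKN1C (p57) rose at all 3 times after 44 °C by its main probe set. It read 138, 115 and 58.5 units after 44 °C, 13.6, 22.6 and 20.5 units after 42 °C and 16.8 units in the control, at least 6.44-fold, 5.39-fold and 2.74-fold above the control. Its probe set 216894_x_at read 86.1, 79.3 and 26.9 units after 44 °C and 35.7 units in the control, and so was not higher at 12 h. None of its other probe sets was called at 0 h, 2 were called higher at 6 h and 2 at 12 h. CDKN2B (p15) read 264, 277 and 324 units after 44 °C, 310, 165 and 155 units after 42 °C and 152 units in the control, and rose directly after 42 °C (2.03-fold) and at 12 h after 44 °C (2.13-fold). Its dimmer probe set was called higher at 0 and 12 h after 44 °C and not after 42 °C. CDKN1A, CDKN1B and CDKN2A had no call against the control.

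Of 13 factors reported upstream of ID genes, 2, 4 and 4 rose at 0, 6 and 12 h after 44 °C, where 2.18%, 1.54% and 1.74% of all genes rose. After 42 °C 2, 0 and 2 rose, beside 1.48%, 1.52% and 0.991% of all genes. ATF3, a stress-induced factor reported to repress ID1, read 334, 582 and 746 units after 44 °C, 219, 54.4 and 243 units after 42 °C and 76.6 units in the control. Of its other probe sets, 1554980_a_at was called higher at 6 and 12 h after 44 °C and directly after 42 °C. The dimmer 1554420_at was called higher only directly after 44 °C. EGR1, reported to activate ID genes after serum, read 1898, 3849 and 4594 units after 44 °C, 867, 521 and 555 units after 42 °C and 747 units in the control, and like ID2 rose between 0 and 6 h after 44 °C (by 1.02). Its other 2 probe sets did not rise between those times, at 172 and 114 units and at 561 and 627 units at 0 and 6 h. KLF4 rose 3.03-fold and 4.13-fold at 6 and 12 h after 44 °C and 2.61-fold at 12 h after 42 °C. KLF6 fell by 1.65 on the log2 scale directly after 42 °C.

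The homeobox gene MSX1, a BMP target as well, was named after its values were seen. It read 410, 300 and 385 units after 44 °C, 400, 196 and 153 units after 42 °C and 110 units in the control, and rose at all 3 times after 44 °C and directly after 42 °C. Over the 9 lists, 89 of 105 genes were measured, and 7.87%, 11.2% and 18% were called either way at 0, 6 and 12 h after 44 °C, beside 2.91%, 4.29% and 5.38% of all genes. After 42 °C the shares were 7.87%, 7.87% and 6.74%, beside 4.7%, 3.55% and 2.44%. The lists were chosen with these results known, so these shares describe the named pathways and were not tested against other lists.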

How the data were processed

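Total RNA (5 µg per sample, per the labels' protocols) of 7 HSC-3 cultures was labelled with biotin and hybridised to 1 array each. The values used were the intensity values per probe set that the authors deposited, on a linear scale; their algorithm: not given in the sources used here. Arrays were not replicated, and the number of arrays limits the precision. The deposited values differ in level, and only the quantile normalized and median shifted scales below bring them to a common level. All 7 columns were used, with 0 columns from other samples.

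From these, log2 differences were computed with values under the pooled median (21.4 units) set to that floor. Probe sets were named with the platform annotation (41097 listed 1 gene, 1801 several, 11777 unlisted here), and symbols were updated with a RefSeq table of GRCh38.p14, used for names. Of the probe sets listing 1 gene, the one of highest mean stood for it, which gave 15029 genes above the floor on some array. A call needs 2-fold on each of 3 scales (deposited, quantile normalized, median shifted). No test or fit was made: each condition has 1 array, and times were not taken as replicates. The comparisons were 6 heated arrays against the control, 3 between temperatures and 4 between times.

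Named were all ID probe sets, the 3 E proteins, up to 4 called bright genes per related list, the 10 genes most like ID2 and the 5 most like ID3, and HSPA6 and DNAJB1. BMP4, GDF2, BMP8B, BMP7, MSX1, NOG, COL1A1, CD14, other cell type markers, HSPA1L, ID2B, ID2-AS1, SMAD6, SMAD7 and the remaining cell cycle inhibitors fell outside that rule. The members and lists were chosen with earlier results of these data known. Alternatives were both other scalings, a lower floor, no floor, the mean of probe sets, probe sets listing several genes, and Spearman correlation. Scripts in Python 3.11.15 with numpy 2.4.6, pandas 2.3.3 and matplotlib 3.10.9 were tested on simulated data.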

Additional observations from a re-analysis of the deposited data

Results flagged for a closer look

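The main ID2 probe set changed in opposite directions between 0 and 6 h of recovery at the 2 temperatures. It differed by 1.51 log2 units (6 h minus 0 h) after 44 °C and by -1.28 log2 units after 42 °C. Each difference kept its sign and stayed past 2-fold under all 3 scalings. ID2 was picked by its values on 44 °C arrays, so this is a description. With 1 array for each condition the difference between the temperatures was not tested. The probe set that lists ID2 with ID2B fell by 2.46 log2 units over the same hours after 44 °C, so the direction there depends on the probe set. After 42 °C the fall was called for the main probe set alone. The other 2 probe sets that list ID2 had bounds of -0.10 and -0.19 log2 units there, with no call.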

How the results depend on the processing

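No paired analysis was possible because the groups share only 1 replicate number. Arrays of the 2 temperatures match by time, and those differences are given singly, with times not taken as replicates. Of 13 ID differences past 2-fold as deposited, all 13 kept their direction under each of the 6 alternatives, and 12 stayed past 2-fold after quantile normalization, 10 after the median shift, 10 when probe sets were averaged and 13 under the other 3. Allowing probe sets that list several genes kept the same probe set for every member, so that alternative could not change these differences. Lowering or removing the floor leaves a difference between arrays above it unchanged and can only widen a bound. Neither of these could therefore turn a direction. Most of the 13 differences are of ID2, many of them on the 44 °C arrays by which the family was picked. The probe set that lists ID2 with ID2B entered none of the 6, and it fell by 2.46 log2 units between 0 and 6 h after 44 °C. Values that moved by more than the disagreement between probe sets of 1 gene are given as log2 differences. After quantile normalization ID1 stood at 0.94 at 12 h after 44 °C against the control, and at 0.14, 0.53 and 0.46 for 44 °C minus 42 °C at 0, 6 and 12 h. ID2 stood at 2.63 for 44 °C minus 42 °C at 0 h. ID3 stood at -0.23 at 12 h after 44 °C, and at -0.37 and 0.069 for 44 °C minus 42 °C at 0 and 6 h, and ID4 at -0.16 for that difference at 0 h. After the median shift the 44 °C minus 42 °C difference was 0.043 at 0 h and 0.37 at 12 h for ID1, and 2.59 for ID2 and -0.30 for ID3 at 0 h.

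With the floor lowered to the smaller setting, ID2 stood above the control by 6.63, 8.13 and 8.08 at 0, 6 and 12 h after 44 °C and by 3.51 and 2.23 at 0 and 6 h after 42 °C. Without a floor these were 7.88, 9.39 and 9.34 after 44 °C and 4.77 and 3.49 after 42 °C. At 12 h the 44 °C minus 42 °C difference was 8.03 for ID2 under both, and -1.08 (lower floor) and -1.60 (no floor) for ID4. The ID2 control value lies below background, so the size of these differences follows from the floor. With the mean of its probe sets ID2 stood at 4.28, 6.06 and 5.93 after 44 °C, at 1.30 and 0.61 at 0 and 6 h after 42 °C, and at 5.45 and 5.93 for 44 °C minus 42 °C at 6 and 12 h. Of the 10 genes most like ID2, 4 were shared by Spearman correlation and 2 after quantile normalization. Of 26 counts of genes past 2-fold, 19 differed by more than 1.5 times after quantile normalization, 19 after the median shift, 21 with the lower floor, 25 without a floor and 24 with the mean of probe sets, the cause was not tested, and the shares of all genes given are those past 2-fold under all scalings.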
